A study of Mus musculus with 12 samples.

Results

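The genes of DNA replication and of entry into S phase are 35 members of the 23420 gene symbols in the authors' table of raw counts, chosen by symbol, and all 35 were present and passed the filter on low counts. The study measured RNA of the bulk pylorus, the outlet of the stomach, in 4 groups of 3 libraries. They came from wild-type C57BL/6 mice at 60 days (D60) and at 80 days (D80), and from CEA424-SV40 T Ag transgenic mice at the same ages. No other allele and no treatment is named for these groups. In this model a fragment of the human carcinoembryonic antigen promoter drives the simian virus 40 T antigen, a viral protein that binds the RB proteins and p53. T antigen RNA was not analysed here. The labels do not say that the libraries of a group came from separate mice, so the p-values measure only the spread between these libraries.

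A cell prepares to copy its DNA by loading the MCM helicase onto origins in G1, a step called licensing, which needs the origin recognition complex, Cdc6 and Cdt1. In S phase Cdc45 and the GINS complex turn the loaded MCM ring into an active helicase, and polymerases, the sliding clamp and its loader then build the new strands. Enzymes of nucleotide supply deliver the building blocks, while cyclins D and E with their kinases, and the phosphatase Cdc25a, open the way from G1 into S phase. Many of these genes are known targets of the E2F transcription factors, which the RB proteins hold in check in resting cells. In the stomach, dividing cells sit mainly in the isthmus of the glands.

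Because E2F factors are the best known regulators of the members, their promoters were searched for E2F-type letters, TTTCCCGC, TTTCGCGC, TTTGCCGC and TTTGGCGC, on both strands. The windows ran from 250 bases before to 50 bases after each annotated start, from RefSeq on GRCm38.p6, and 28 of the 35 members had one. The 7 members without a window, Mcm4, Gins1, Gins2, Gins4, Pole, Ccne2 and Ccnd1, could not be searched. At least 1 match was found in 13 of the 28 genes (46.4%), against 4.23% of the 11320 tested genes with a window and 2.61% of all 27025 genes in the promoter table. The 13 genes were Orc1, Cdc6, Cdt1, Mcm3, Mcm5, Mcm6, Mcm7, Gins3, Rfc3, Pola1, Pold1, Lig1 and Cdc25a. A match is a description of letters, not evidence of binding. The 250 bases before the start are shown for 3 members with matches that were called higher in the D80 transgenic libraries, for the only member that was called lower, and for a member with a large increase and no match. Capitals mark E2F-type matches, which overlap in Mcm5 and in Mcm6, and each sequence reads 5′ to 3′ on the strand of its gene. Mcm6 is at chr1:128359706-128359955 (minus strand), Mcm5 at chr8:75109259-75109508 (plus), Pola1 at chrX:93632156-93632405 (minus), Cdc25a at chr9:109875329-109875578 (plus) and Mcm2 at chr6:88898781-88899030 (minus).
Mcm6: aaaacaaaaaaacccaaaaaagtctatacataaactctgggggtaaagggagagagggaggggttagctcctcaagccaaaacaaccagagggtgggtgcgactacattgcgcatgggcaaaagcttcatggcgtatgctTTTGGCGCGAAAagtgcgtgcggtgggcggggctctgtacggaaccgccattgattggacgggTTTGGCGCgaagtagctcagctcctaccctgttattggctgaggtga
Mcm5: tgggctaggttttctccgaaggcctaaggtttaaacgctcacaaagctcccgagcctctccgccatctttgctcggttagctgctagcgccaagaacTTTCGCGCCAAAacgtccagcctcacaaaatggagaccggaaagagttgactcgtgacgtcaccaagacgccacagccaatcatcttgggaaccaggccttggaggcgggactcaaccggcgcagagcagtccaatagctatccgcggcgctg
Pola1: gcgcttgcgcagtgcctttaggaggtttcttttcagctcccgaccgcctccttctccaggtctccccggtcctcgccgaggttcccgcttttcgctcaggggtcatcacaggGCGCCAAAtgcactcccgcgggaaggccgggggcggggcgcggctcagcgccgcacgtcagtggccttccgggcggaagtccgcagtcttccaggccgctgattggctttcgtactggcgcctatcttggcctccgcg
Cdc25a: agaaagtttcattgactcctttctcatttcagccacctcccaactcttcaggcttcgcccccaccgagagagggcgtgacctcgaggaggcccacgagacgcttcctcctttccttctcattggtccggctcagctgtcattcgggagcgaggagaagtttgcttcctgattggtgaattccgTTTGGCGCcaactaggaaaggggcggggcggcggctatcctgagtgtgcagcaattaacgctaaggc
Mcm2: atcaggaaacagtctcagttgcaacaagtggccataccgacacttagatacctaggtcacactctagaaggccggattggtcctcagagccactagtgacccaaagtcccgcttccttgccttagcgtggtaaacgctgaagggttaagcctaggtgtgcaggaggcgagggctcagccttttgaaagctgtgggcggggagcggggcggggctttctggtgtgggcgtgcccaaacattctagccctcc

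**Figure D1:**
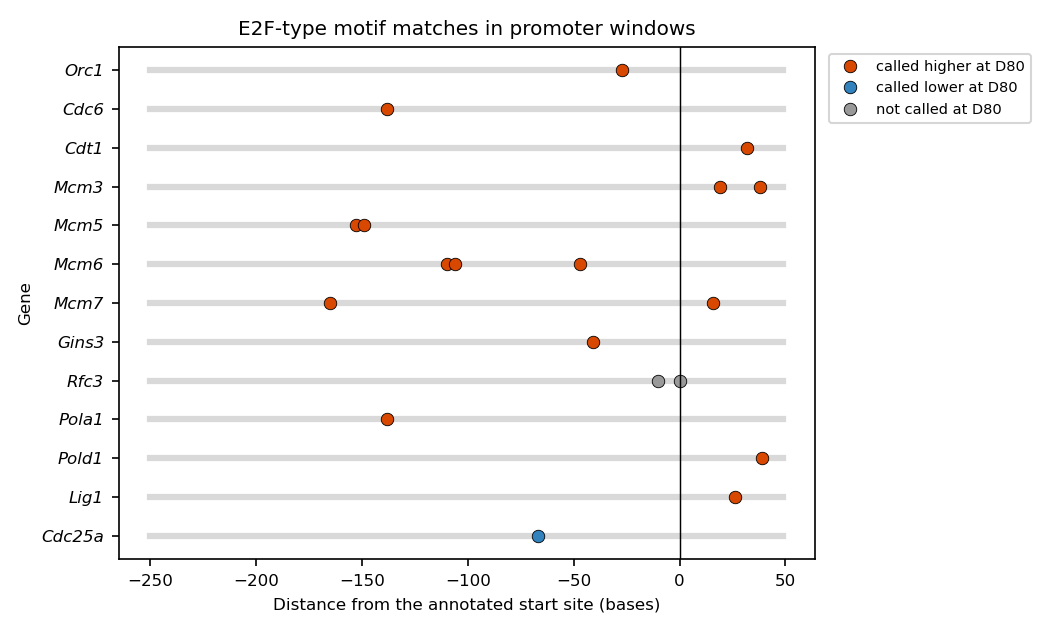
Position of the first base of each E2F-type match (x axis, bases from the annotated start) in the 13 members with a match (y axis), coloured by the call in the D80 comparison of transgenic with wild-type. Grey bars are the searched windows, and Mcm6 holds 3 matches, the most of any member.

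Among members with a window, 11 of the 22 called higher at D80 had an E2F-type match, and 2 of the other 6, Rfc3 and Cdc25a. The match of Cdc25a lay 67 bases before its start, on the same strand as the gene, in the one member that fell. In the wider list of replication genes 11 of 45 genes had a match, and among 18 genes of mitosis 1 of the 16 with a window did.

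Total counts per library ran from 20121600 to 27633715, and levels are given as CPM, counts scaled to a library total of 1e+06 with TMM factors, which correct for composition. The lowest group mean of any member was 27.7 counts. All 12 neuroendocrine markers were called higher in the transgenic libraries at both ages, and their summed level was 339 to 606 CPM in wild-type, 4875 to 6668 in D60 transgenic and 28454 to 42062 in D80 transgenic libraries. Smooth muscle markers fell at D80 in 10 of 10 genes and surface mucous markers, which define the stomach lining, in 9 of 10. The surface mucous sum was 38005 to 55061 CPM in the D80 transgenic and 110606 to 226573 in the wild-type libraries, so stomach markers were present in all 12. At D80, 19.4% of all tested genes were called higher and 22.0% lower. Macrophage markers rose there in 7 of 8 tested genes and B cell and germinal centre markers in 6 of 7 tested. T cell markers rose in 2 of 8, pancreatic acinar markers in 3 of 10, duodenal enterocyte markers in 0 of 12, and intestinal crypt markers in 0 of 8 with 1 lower. For 9 of the 10 acinar markers, though, the 3 D80 transgenic libraries lay above the 3 D80 wild-type libraries, against 24.4% of tested genes. The median log2 fold change of the acinar markers was 3.96. In bulk tissue, more cells of a type and more RNA per cell cannot be told apart. By Y-linked transcripts, the D60 wild-type libraries and D80 transgenic replicate 1 were of male type and the others of female type. So at D60 genotype and sex cannot be told apart, nor can age and sex within the wild-type libraries. The interaction of genotype and age uses both of these comparisons.

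Of the 35 members, 25 rose in the D80 transgenic libraries against the D80 wild-type libraries and 1, Cdc25a, fell, in edgeR's quasi-likelihood test with Benjamini-Hochberg adjustment over all 15369 tested genes. Across all tested genes 19.4% were called higher and 22.0% lower in that comparison. The median log2 fold change was 0.66 over the members and -0.07 over all tested genes. The 3 D80 transgenic libraries lay above the 3 D80 wild-type libraries for 27 members and below them for 1, against 24.4% and 26.1% of tested genes. For 23 of the 35 members each D80 transgenic library lay above all 9 other libraries, which held for 19.9% of tested genes.

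**Figure D2:**
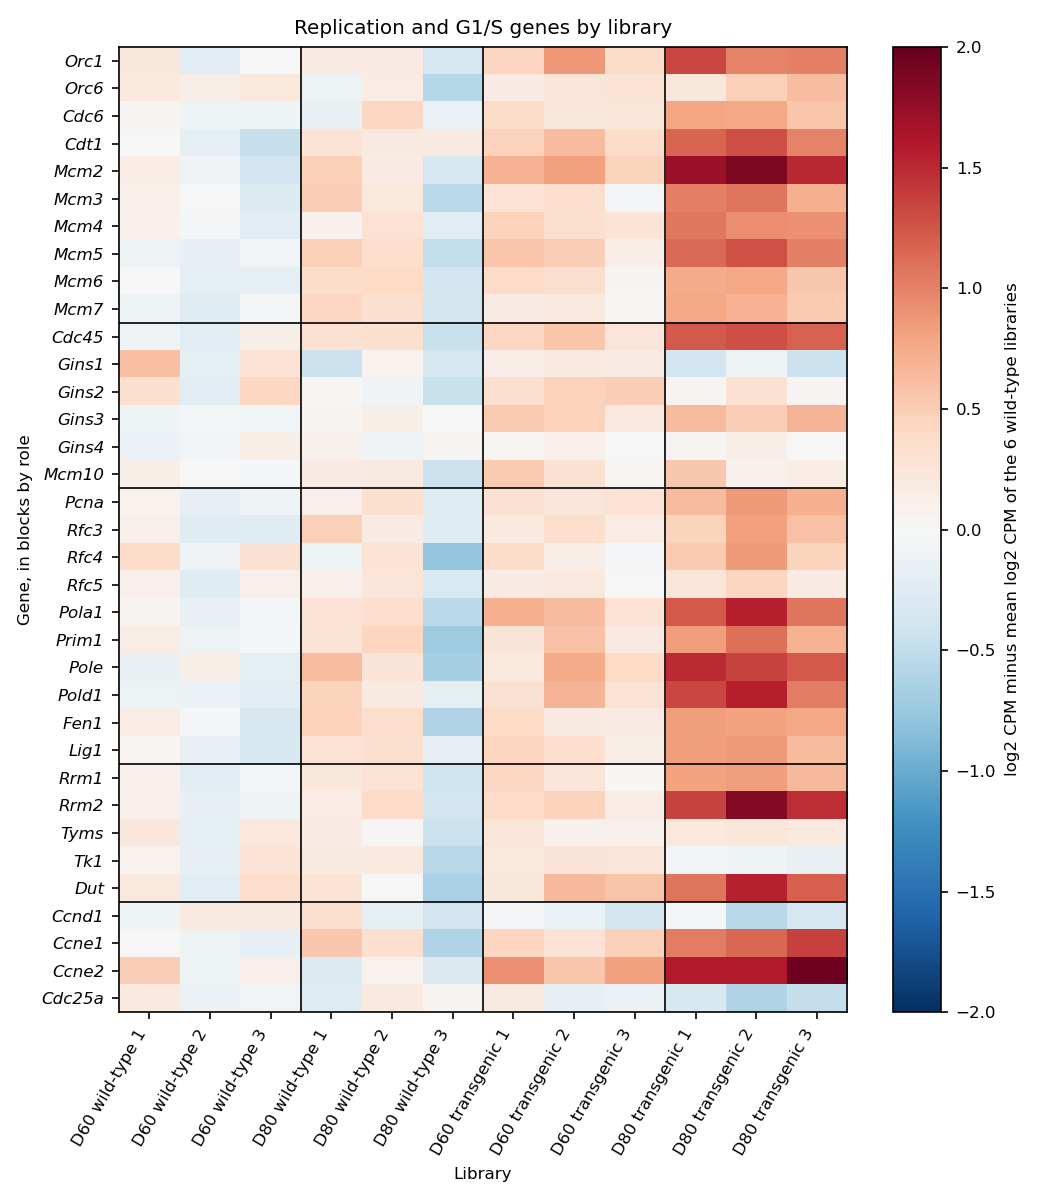
Log2 CPM of each member in each of the 12 libraries (columns), minus its mean over the 6 wild-type libraries, with genes (rows) in blocks by role. The D80 transgenic columns are red for most genes, with Gins1, Tk1, Ccnd1 and Cdc25a as exceptions, and D80 wild-type replicate 3 is the bluest wild-type column for most genes.

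D80 wild-type replicate 3 was the lowest library of its group for 31 of 35 members and the lowest of all 12 libraries for 23. The same library had a summed level of duodenal enterocyte markers of 12572 CPM, against 743 and 3171 in the other D80 wild-type libraries, and the part of this in the member levels was not tested. The median coefficient of variation of the members was 24.1% in the D80 wild-type group and 10.4% to 11.4% in the other 3. Without that library, 20 members were called at D80. Leaving out each of the 12 libraries in turn gave 19 (without D80 transgenic replicate 2) to 27 called members, and 18 of the 26 calls held in all 12 omissions. The 8 that were lost on at least 1 omission were Orc6, Mcm6, Mcm7, Gins3, Rfc4, Prim1, Fen1 and Cdc25a. The log2 fold change without D80 wild-type replicate 3 was 0.30 for Mcm6 (from 0.52), 0.30 for Mcm7 (from 0.51) and 0.39 for Fen1 (from 0.66). Pancreatic acinar markers summed to 4679.6 CPM in D80 transgenic replicate 1 and to 1089.7 and 929 CPM in replicates 2 and 3, and without this library and D80 wild-type replicate 3 together 16 members were called.

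All 10 licensing genes rose at D80 (against 19.4% of all tested genes), with a median log2 fold change of 0.86. Mcm2, a subunit of the helicase ring (chr6:88883474-88898780, GRCm38), was at 30.1, 25.96 and 20.9 CPM in the D60 wild-type libraries, 37.99, 30.6 and 21.7 in the D80 wild-type, 44.4, 48.3 and 37.3 in the D60 transgenic and 89.9, 99.2 and 77.8 in the D80 transgenic libraries. The D80 transgenic values stood apart from all others, and the D60 transgenic values also lay above every D60 wild-type value, while the highest D80 wild-type library lay within their range. Mcm2 thus changed by 1.56 (SE 0.20, adjusted p = 1.5e-04) on the log2 scale at D80, a 2.96-fold difference. Cdt1, which loads the MCM ring (chr8:122568015-122573554), was at 14.6, 13.05 and 10.8 CPM in the D60 wild-type libraries, 17.8, 16.8 and 16.7 in the D80 wild-type, 20.2, 22.96 and 19.1 in the D60 transgenic and 32.9, 36.1 and 29.2 in the D80 transgenic libraries. Its 3 D60 transgenic libraries lay above all 6 wild-type libraries, and the 3 D80 transgenic libraries above those. At D80 the log2 fold change of Cdt1 was 0.94 (SE 0.14, adjusted p = 3.6e-04).

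Mcm4, another ring subunit, had a log2 fold change at D80 of 0.90 (SE 0.14, adjusted p = 4.2e-04), from 28.2 ± 4.72 to 52.6 ± 3.06 CPM (SD, n = 3 libraries each). Mcm5 followed with 0.97 (SE 0.21, adjusted p = 0.0037), from 41.8 ± 13.4 to 81.8 ± 7.67 CPM. The increases within the ring were uneven in size, from 0.51 for Mcm7 and 0.52 for Mcm6 to 0.81 for Mcm3 and 1.56 for Mcm2. Orc1, the largest subunit of the origin recognition complex, rose by 1.11 (adjusted p = 0.0058) and Orc6 by 0.59 (adjusted p = 0.018). Cdc6, the ATPase that joins the complex in G1, rose by 0.64 (adjusted p = 0.012). Per kilobase of exon, Orc1 was the lowest member, at 0.412 ± 0.0763 CPM in D80 wild-type and 0.888 ± 0.121 in D80 transgenic libraries, against 15.5 ± 4.30 and 22.1 ± 1.86 for Mcm6.

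**Figure D3:**
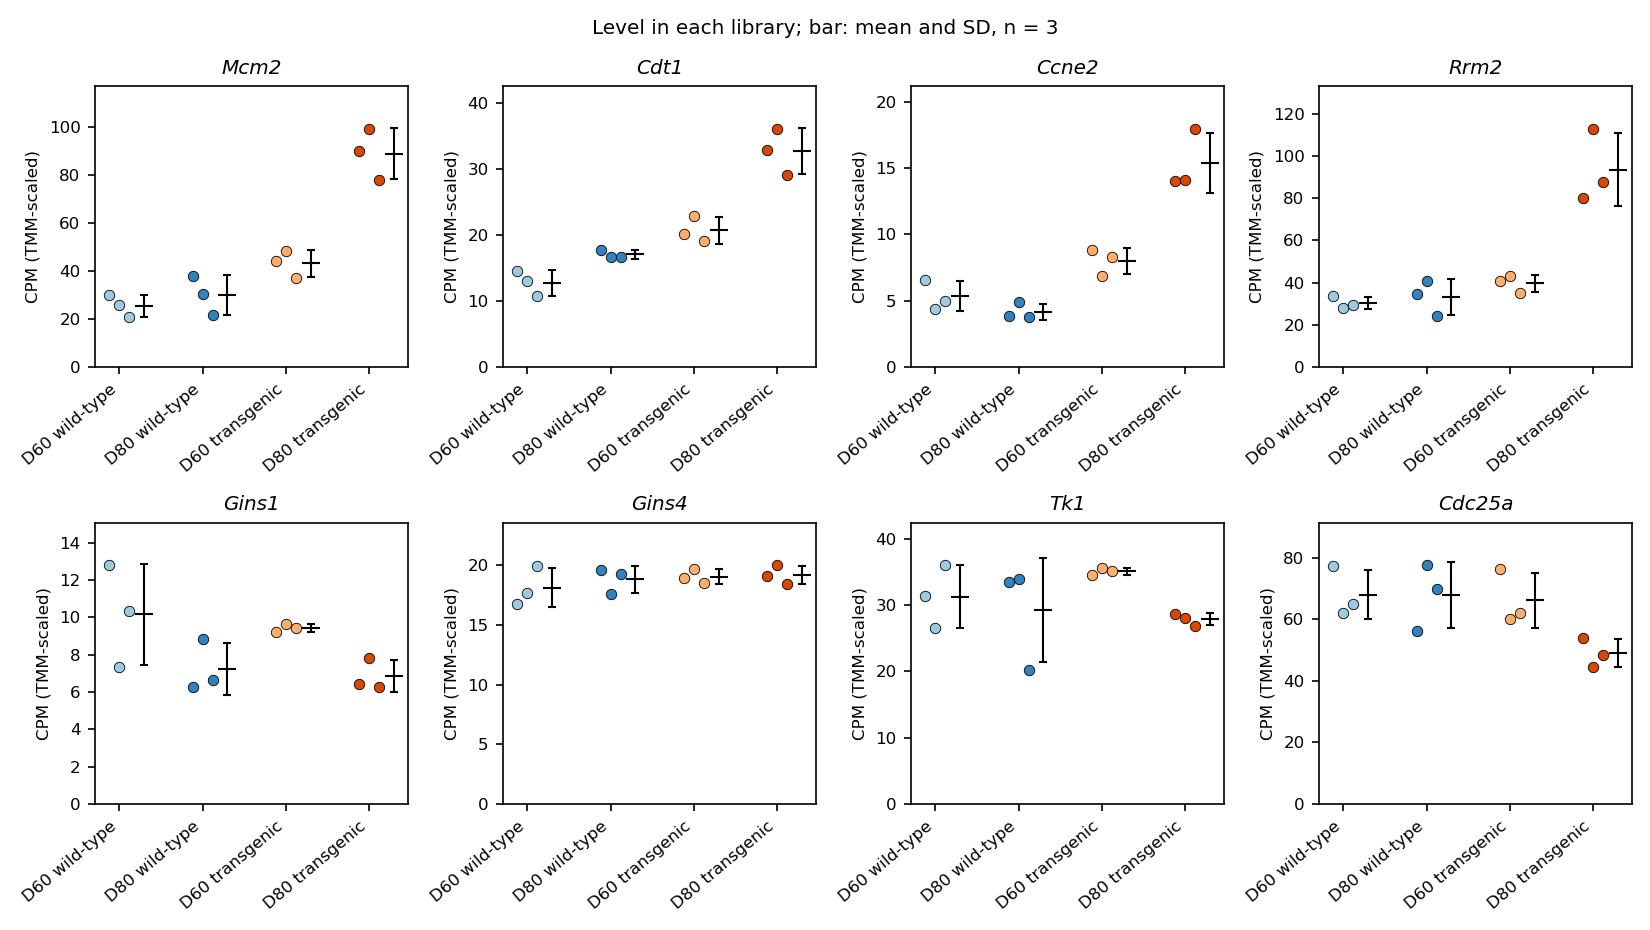
TMM-scaled CPM (y axis) of 8 members in each library of the 4 groups (x axis), with the mean and SD of 3 libraries beside the points. Mcm2, Cdt1, Ccne2 and Rrm2 are highest in all 3 D80 transgenic libraries, Gins4 is at about one level throughout, and Cdc25a is lowest in the D80 transgenic libraries.

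Of the 6 genes of helicase activation 2 rose at D80 (33.3%, against 19.4% of all tested genes), with a median log2 fold change over the 6 of 0.29. Cdc45, which binds the MCM ring as the helicase starts (chr16:18780447-18811987), was at 6.48, 5.98 and 7.52 CPM in the D60 wild-type libraries, 8.53, 8.69 and 5.11 in the D80 wild-type, 9.19, 10.1 and 8.22 in the D60 transgenic and 16.2, 16.9 and 15.8 in the D80 transgenic libraries. Each D80 transgenic value exceeded the other 9, and the log2 fold change was 1.13 (SE 0.20, adjusted p = 0.0012). Its GINS partners moved less. Gins3 rose by 0.54 (SE 0.17, adjusted p = 0.022), from 3.87 ± 0.144 to 5.64 ± 0.366 CPM (SD, n = 3 libraries each).

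The remaining GINS subunits did not pass the test. Gins1 was at 12.8, 7.35 and 10.3 CPM in the D60 wild-type libraries, 6.26, 8.82 and 6.63 in the D80 wild-type, 9.23, 9.63 and 9.41 in the D60 transgenic and 6.43, 7.82 and 6.26 in the D80 transgenic libraries. Its groups overlapped, and the D80 log2 fold change was -0.08 with a 95% interval of -0.55 to 0.39. Gins4 was at 16.8, 17.7 and 19.9 CPM in the D60 wild-type libraries, 19.6, 17.6 and 19.2 in the D80 wild-type, 18.9, 19.7 and 18.5 in the D60 transgenic and 19.1, 19.99 and 18.4 in the D80 transgenic libraries. The 12 values lay close together, with a D80 log2 fold change of 0.03 and an interval of -0.21 to 0.27, although this turned slightly negative on leaving out D80 wild-type replicate 2 (-0.02). Gins2 had a log2 fold change of 0.30 (95% interval -0.11 to 0.70, adjusted p = 0.22), and 67.3% of its exon length is overlapped by Gse1 on the opposite strand, so that reads of the pair cannot be told apart unless counting used strand, which the sources used here do not give. Mcm10, which links the helicase to polymerase alpha, had 0.28 (interval -0.14 to 0.69, adjusted p = 0.27).

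Among the 10 genes of fork synthesis 8 rose at D80 (against 19.4% of all tested genes), with a median of 0.71. Pola1, the catalytic subunit of the polymerase that starts each new strand (chrX:93304767-93632155), was at 11.4, 9.85 and 10.8 CPM in the D60 wild-type libraries, 13.2, 13.7 and 7.58 in the D80 wild-type, 17.7, 16.9 and 13.3 in the D60 transgenic and 25.6, 32.1 and 22.9 in the D80 transgenic libraries. The D80 transgenic libraries stood above all others and the log2 fold change was 1.22 (SE 0.22, adjusted p = 0.0014). Pold1, catalytic subunit of the lagging strand polymerase, was at 11.5, 11.4 and 10.7 CPM in the D60 wild-type libraries, 16.9, 13.99 and 10.8 in the D80 wild-type, 15.2, 19.7 and 15.1 in the D60 transgenic and 31.2, 36.3 and 25.2 in the D80 transgenic libraries, and its log2 fold change at D80 was 1.15 (SE 0.19, adjusted p = 7.0e-04).

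Pole, the leading strand polymerase, rose by 1.19 (SE 0.27, adjusted p = 0.0047), from 9.11 ± 3.72 to 20.9 ± 1.89 CPM (SD, n = 3 each). Pcna, the sliding clamp, was at 60.8, 51.4 and 54.4 CPM in the D60 wild-type libraries, 62.2, 71.9 and 48.8 in the D80 wild-type, 71.3, 68.6 and 70.3 in the D60 transgenic and 89.3, 104 and 94.8 in the D80 transgenic libraries. All 3 D80 transgenic values again lay above the other 9, for a log2 fold change of 0.66 (SE 0.13, adjusted p = 0.0028). Per kilobase of exon Pcna was the highest member in the D80 transgenic libraries, at 40.1 ± 3.159 CPM, against 25.4 ± 4.84 in D80 wild-type. The log2 fold changes of Prim1, the primase, Lig1, which seals Okazaki fragments, Fen1, which trims them, and Rfc4, part of the clamp loader, were 0.81, 0.62, 0.66 and 0.76. For Fen1, 78.8% of exon length lies opposite an antisense gene that the count table does not list. The loader subunits Rfc3 and Rfc5 did not pass the test, at 0.47 (95% interval 0.06 to 0.87, adjusted p = 0.062) and 0.25 (-0.09 to 0.59, adjusted p = 0.21). Rfc3 lay near the threshold and was called higher in 7 of 23 alternative settings, Rfc5 in 1.

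Nucleotide supply was split, with 3 of 5 genes higher at D80, against 19.4% of all tested genes. Rrm2, the regulated small subunit of ribonucleotide reductase (chr12:24708241-24714146), was at 33.7, 28.03 and 29.7 CPM in the D60 wild-type libraries, 34.7, 40.9 and 24.2 in the D80 wild-type, 40.95, 43.1 and 35.03 in the D60 transgenic and 79.96, 113 and 87.6 in the D80 transgenic libraries. No D80 transgenic library overlapped any other library, and the log2 fold change was 1.49 (SE 0.19, adjusted p = 1.3e-04), a 2.81-fold difference. Its partner Rrm1, the large subunit, rose by 0.69 (SE 0.17, adjusted p = 0.008). Dut, which removes dUTP before it can enter DNA, was at 24.9, 18.6 and 27.4 CPM in the D60 wild-type libraries, 25.97, 21.6 and 13.7 in the D80 wild-type, 25.1, 33.6 and 31.9 in the D60 transgenic and 44.8, 62.5 and 48.9 in the D80 transgenic libraries, and changed by 1.35 (SE 0.24, adjusted p = 0.0011).

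The salvage and thymidylate enzymes Tk1 and Tyms did not pass the test. Tk1 was at 31.3, 26.5 and 35.98 CPM in the D60 wild-type libraries, 33.5, 33.97 and 20.2 in the D80 wild-type, 34.5, 35.6 and 35.2 in the D60 transgenic and 28.7, 28.1 and 26.9 in the D80 transgenic libraries. Its D80 transgenic values fell inside the range of the D80 wild-type values, with a log2 fold change of -0.07 and an interval of -0.46 to 0.32. Tyms had a log2 fold change of 0.27 (interval -0.07 to 0.61, adjusted p = 0.18), from 32.9 ± 6.65 to 39.7 ± 0.696 CPM (SD, n = 3 each). A pseudogene of Tyms has a row of its own in the count table, so the split of reads between them is uncertain.

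Of the 4 regulators of G1/S, both E-type cyclins rose at D80, Cdc25a fell and Ccnd1 did not pass the test. Of all tested genes 19.4% were called higher and 22.0% lower. Ccne2, cyclin E2 (chr4:11191351-11204779), was at 6.61, 4.43 and 4.998 CPM in the D60 wild-type libraries, 3.86, 4.90 and 3.81 in the D80 wild-type, 8.83, 6.88 and 8.30 in the D60 transgenic and 14.1, 14.1 and 17.9 in the D80 transgenic libraries. The D80 transgenic libraries lay above all others, and its log2 fold change of 1.87 (SE 0.20, adjusted p = 3.8e-05) was the largest of any member, a 3.67-fold difference. Ints8 on the opposite strand overlaps 17.4% of the exon length of Ccne2. Ccne1, cyclin E1, rose by 1.02 (SE 0.24, adjusted p = 0.0062), from 7.55 ± 2.78 to 15.3 ± 1.81 CPM (SD, n = 3 each).

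Cdc25a, which removes inhibitory phosphates from the S phase kinase (chr9:109875579-109893895), was at 77.2, 61.99 and 64.9 CPM in the D60 wild-type libraries, 56.3, 77.5 and 69.8 in the D80 wild-type, 76.3, 60.05 and 61.98 in the D60 transgenic and 53.9, 44.6 and 48.5 in the D80 transgenic libraries. All 3 D80 transgenic libraries lay below the other 9. The log2 fold change was -0.47 (SE 0.15, adjusted p = 0.024), but the adjusted p rose above 0.05 on leaving out any one of 5 libraries (replicates 2 and 3 of both D80 groups and replicate 2 of D60 transgenic), at 0.054 to 0.095. It was also 0.094 with upper-quartile factors and 0.79 with library totals alone, where the log2 fold change was -0.045. Ccnd1, cyclin D1, had the highest level per kilobase of the members in the D60 wild-type libraries, 32.9 ± 3.25 CPM, and at D80 a log2 fold change of -0.24 with an interval of -0.66 to 0.18.

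**Figure D4:**
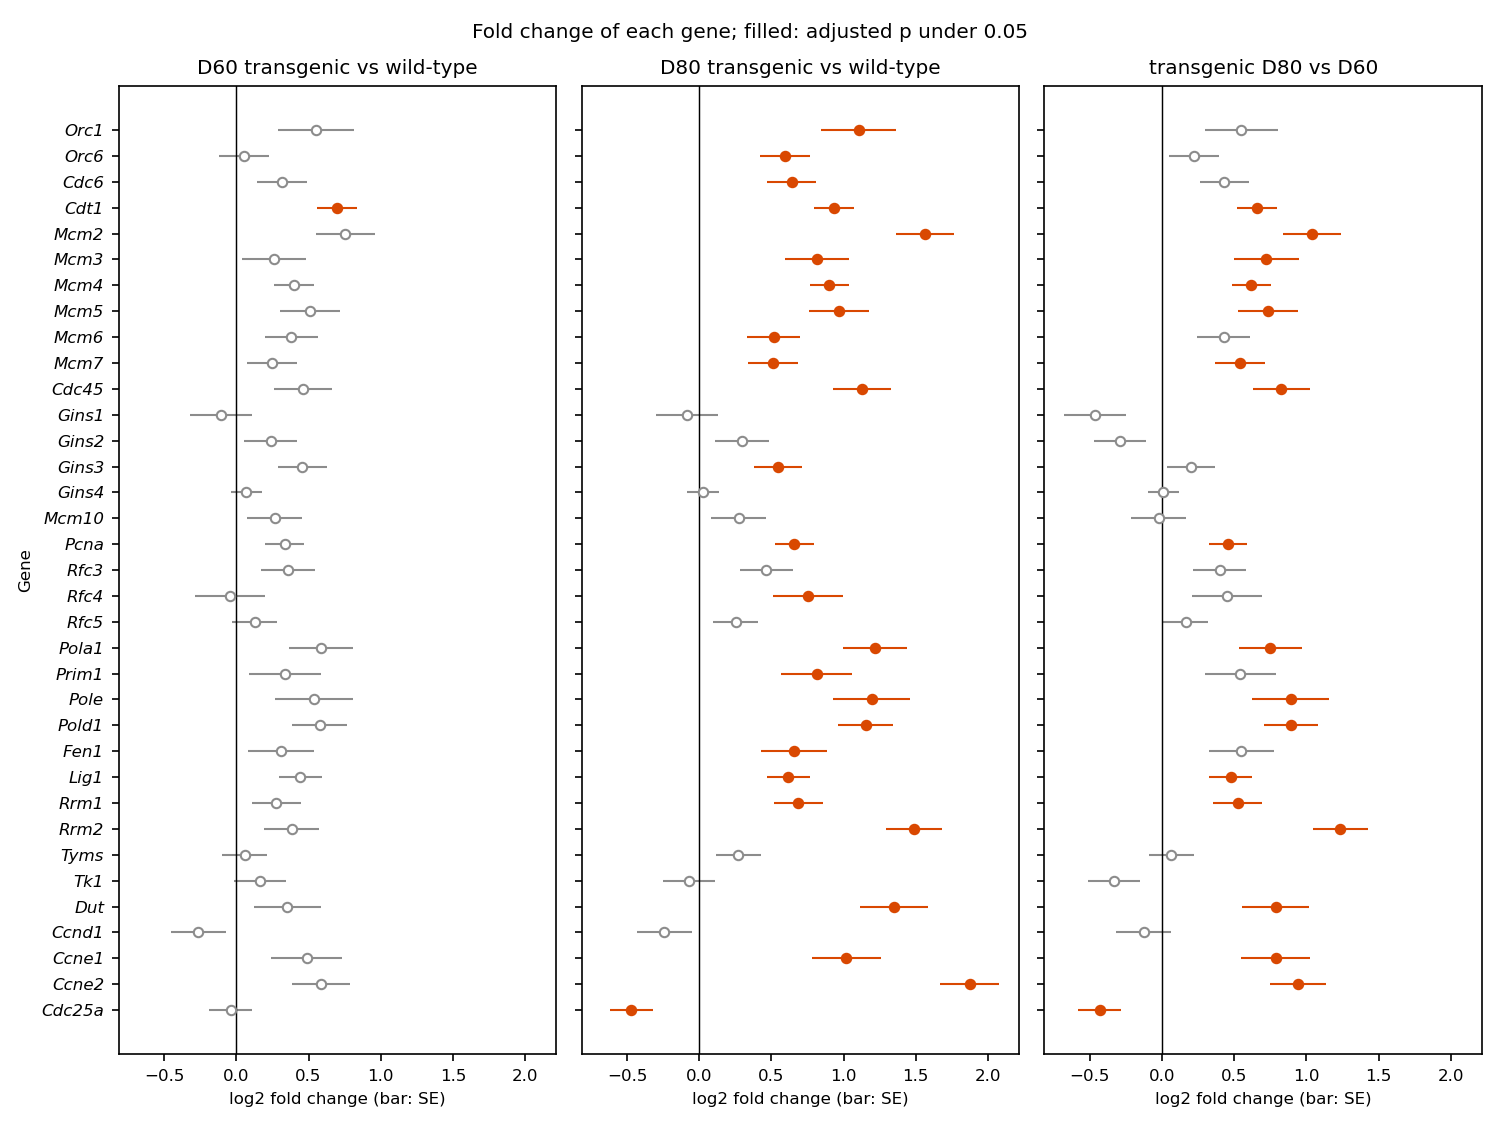
Log2 fold change (x axis; bar, SE) of the 35 members (y axis) in 3 comparisons, with filled points where the adjusted p is under 0.05. Filled points number 1 at D60 (Cdt1), 26 at D80 and 18 for D80 against D60 within transgenic libraries.

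At D60 only Cdt1 rose in the transgenic libraries, by 0.70 (SE 0.14, adjusted p = 0.014), and none fell, where 3.66% of all tested genes were called higher and 0.241% lower. The median log2 fold change of the members was 0.34, against -0.004 over all genes. The transgenic libraries did not overlap the wild-type libraries for 21 members, all higher, against 12.2% of tested genes higher and 7.84% lower. The mean was higher in D60 transgenic than in D60 wild-type libraries for 31 of 35 members, while the test on each gene passed only for Cdt1. Of the 15369 tested genes, 7566 had a positive log2 fold change at D60. Mcm2 had 0.76 (SE 0.20, adjusted p = 0.066). The Cdt1 call was lost without D60 wild-type replicate 3 (0.58, adjusted p = 0.074) or without D60 transgenic replicate 2 (0.61, adjusted p = 0.081). With sex as a covariate the log2 fold change was 0.71 (adjusted p = 0.68). That sex term rests only on how D80 transgenic replicate 1 differs from replicates 2 and 3, so it cannot separate sex from genotype at D60. On omitting a D80 wild-type library the count was 2 (replicate 1), 1 (replicate 2) or 3 (replicate 3). Neuroendocrine markers were higher in all 12 genes at D60, and the part of these cells in the member levels was not tested.

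Between D60 and D80, no member was called in the wild-type libraries, nor was any of the 15369 genes (0% called), in edgeR. At an unadjusted p under 0.05 there were 2 members, Cdt1 and Gins1, and 1925 genes, and DESeq2 called 0 members and 260 genes. The median of the members was 0.11. In these wild-type libraries age and sex cannot be told apart. Libraries of the 2 ages did not overlap for 2 members, Cdt1 and Gins3, both higher at D80, against 7.06% of tested genes higher and 4.55% lower. Within the transgenic libraries, 17 members rose from D60 to D80 and Cdc25a fell, against 17.7% and 18.0% of tested genes. Libraries did not overlap for 24 members higher at D80 and 4 lower, against 30.6% and 28.0% of tested genes, and the median was 0.52, against 0.02 over all genes.

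The members that rose with age in the transgenic libraries were 6 licensing genes, 1 of helicase activation, 5 of fork synthesis, 3 of nucleotide supply and both E-type cyclins. Rrm2 rose by 1.23 (SE 0.19, adjusted p = 8.7e-04), Mcm2 by 1.04 (SE 0.20, adjusted p = 0.0028), Ccne2 by 0.94 (SE 0.20, adjusted p = 0.0042) and Cdt1 by 0.66 (SE 0.14, adjusted p = 0.0042). The mean rose from wild-type to D60 transgenic to D80 transgenic for 27 of 35 members, and the share of all tested genes with this order was not computed. Of the 18 calls, 7 held in every omission of a library: without D60 transgenic replicate 3 or D80 transgenic replicate 2 there were 7 called members, and without D60 transgenic replicate 1 there were 11. Gins1 (-0.46, adjusted p = 0.11), Gins2 (-0.29, adjusted p = 0.23) and Tk1 (-0.33, adjusted p = 0.17) had negative values that did not pass.

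The difference of the genotype effect between D80 and D60, the D60 effect being inseparable from sex, was tested as an interaction. It passed for Ccne2, 1.29 (SE 0.28, adjusted p = 0.027), and for Rrm2, 1.11 (SE 0.27, adjusted p = 0.038), against 2.77% of tested genes called higher and 2.23% lower in that test. Dut had 0.997 (SE 0.33, adjusted p = 0.099) and Mcm2 0.81 (SE 0.28, adjusted p = 0.12). The median over the members was 0.35, and -0.06 over all tested genes. Both calls depended on single libraries. On leaving out replicate 3 of any of the 4 groups, or replicate 2 of D80 transgenic, 0 members were called. On leaving out replicate 1 or 2 of D60 wild-type, or replicate 1 of D60 transgenic, 1 was called, and omitting replicate 1 of D80 wild-type gave 4.

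Ratios of counts of 2 members within a library do not depend on scaling, and the members of the pairs below changed unequally by this measure. These pairs were chosen after their values were seen and carry no test. The ratio of Rrm2 to Rrm1 was 0.498 to 0.612 in the 9 other libraries and 0.771 to 1.06 in the D80 transgenic libraries. Mcm2 to Mcm6 was 0.362 to 0.472 in wild-type, 0.530 to 0.602 in D60 transgenic and 0.834 to 0.908 in D80 transgenic libraries. Cdc45 to Gins2 was at most 0.704 in the 9 others and 1.05 to 1.20 in D80 transgenic. Dut to Tyms was at most 0.920 in the 9 others and 1.14 to 1.54 in D80 transgenic. The read counts of Gins2, overlapped by Gse1, and of Tyms, which has a pseudogene, are uncertain, and so are these ratios.

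**Figure D5:**
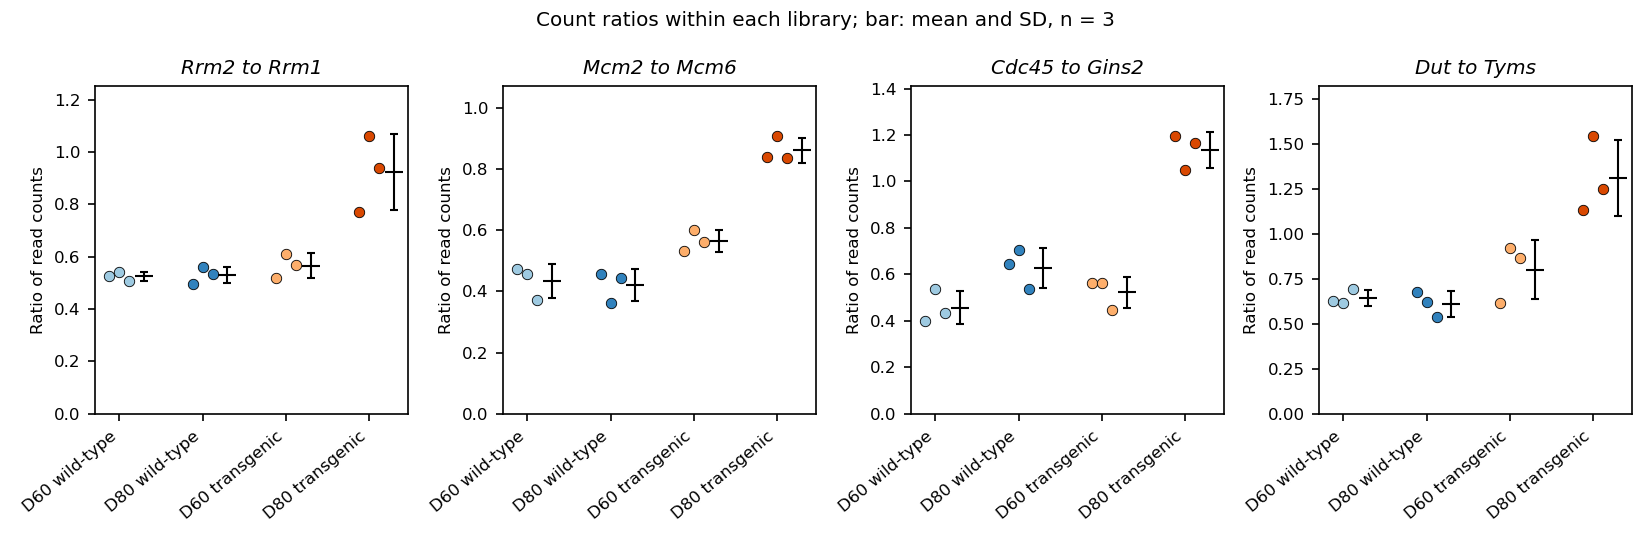
Ratio of read counts (y axis) of 4 pairs of members within each library, by group (x axis), with the mean and SD of 3 libraries beside the points. Every D80 transgenic library lies above the 9 other libraries in all 4 panels, for pairs chosen after their values were seen.

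A wider list held 56 replication genes outside the 35, such as RPA, the fork protection complex and chromatin assembly. At D80, 24 were higher (42.9%, against 19.4% of all tested genes) and 4 lower (against 22.0%), with a median of 0.32. These 28 calls numbered 18 on omitting replicate 2 of D80 transgenic. Rpa1, the large subunit of the single-strand binding protein, rose by 1.40 (SE 0.14, adjusted p = 2.0e-05). Clspn, a mediator of the replication checkpoint, rose by 1.11 (SE 0.17, adjusted p = 4.2e-04), Wdhd1, which tethers polymerase alpha at the fork, by 1.37 (SE 0.21, adjusted p = 4.8e-04), and Chaf1a, a histone chaperone, by 0.99 (SE 0.15, adjusted p = 5.0e-04). The 4 that fell were Ccnd3, a D-type cyclin (-0.53), Mcmbp (-0.61), Pole3 (-0.48) and Prim2, the second primase subunit (-0.74), against 0.81 for Prim1. At D60, 1 of the 56 was called higher (1.79%, below the 3.66% of all tested genes). It was Samhd1, which breaks down dNTPs (1.35, adjusted p = 0.02).

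Within transgenic libraries 13 of the 56 rose with age (23.2%, against 17.7% of all tested genes) and 4 fell. The 17 calls numbered 27 on omitting replicate 3 of D80 wild-type, and 11 on omitting replicate 3 of D60 transgenic. Of the 56, Rpa1 alone passed the interaction test, at 1.05 (SE 0.20, adjusted p = 0.015). Of 18 genes of mitosis, which act after replication, 14 rose at D80 (77.8%, against 19.4% of all tested genes) and 0 fell (against 22.0%). Their median was 0.71, and 9 were called without D80 transgenic replicate 2. Cenpf, a kinetochore protein, rose by 1.49 (SE 0.23, adjusted p = 4.3e-04), Ccnb1, cyclin B1, by 1.13 (SE 0.20, adjusted p = 0.0013), Tpx2, a spindle assembly factor, by 1.06 (SE 0.21, adjusted p = 0.0023), Top2a, which untangles DNA, by 1.02 (SE 0.24, adjusted p = 0.0065) and Mki67, a marker of cycling cells, by 0.59 (SE 0.19, adjusted p = 0.029). At D60 no mitosis gene was called in edgeR, with 2 at an unadjusted p under 0.05 and 1 called by DESeq2. In the transgenic libraries 4 of the 18 rose with age (22.2%, against 17.7% of all tested genes). That count was 0 without replicate 3 of D60 transgenic or replicate 2 of D80 transgenic. It was 1 without replicate 2 or 3 of D60 wild-type, replicate 2 of D60 transgenic or replicate 1 or 3 of D80 transgenic, 2 without replicate 1 of D60 transgenic and 9 without replicate 3 of D80 wild-type. It was also 1 with sex as a covariate, 11 with only the groups compared and 16 with library totals only.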

How the data were processed

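The unit of the file used is the count: the authors gave reads per gene symbol and library, not normalized. Per the submitters' processing notes, STAR 2.5.3a, HTSeq 0.9.1, edgeR 3.16.5 and mm10 were used, with no role stated. Neither annotation nor strand setting is stated in these sources. The deposited normalized table was not used. Genes were kept by filterByExpr (15369 genes, 99.975% of counts). The main test was edgeR 4.0.16's quasi-likelihood test in R 4.3.3, over all 12 libraries with 1 term per group (8 residual degrees of freedom, biological coefficient of variation 24.2%), TMM factors of 0.805 to 1.30, and Benjamini-Hochberg adjustment over all tested genes at 0.05. The comparisons numbered 5, and limma 3.58.1 (voom) and DESeq2 1.42.0 were alternatives. The code was tested on simulated data. The members and lists were chosen with earlier results of these data known. Named in full are, per role, up to 4 called members with the smallest p, every member called lower or not called at D80, and from the wider lists the 4 genes with the smallest p in each direction at D80, with Mki67 and Top2a. Samhd1 and the D80 comparison of Prim1 with Prim2 were added after their values were seen. Gene positions are from GENCODE M21 (GRCm38) and promoters from RefSeq (GRCm38.p6). Same-numbered libraries did not deviate together (mean correlation -0.004 over 18 pairs, -0.34 to 0.39), so numbers were not treated as pairs. No 2 libraries were identical.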

Additional observations from a re-analysis of the deposited data

Results flagged for a closer look

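The genotype effect on Ccne2, cyclin E2, was larger at D80 than at D60 by 1.29 on the log2 scale, and that on Rrm2, the small subunit of ribonucleotide reductase, by 1.11, each by edgeR's test of the interaction of genotype and age. The adjusted p was 0.027 for Ccne2 and 0.038 for Rrm2. Over the alternatives it ran from 5.2e-04 to 0.16 and from 0.0025 to 0.14, respectively. All 3 D80 transgenic libraries lay above the 3 D80 wild-type libraries for both genes, as they did for 24.4% of tested genes. That describes D80 alone and does not compare the ages. At D60 the effect was 0.59 for Ccne2 and 0.38 for Rrm2, neither past the threshold, and there genotype and sex cannot be told apart.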

How the results depend on the processing

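The counts that follow cover only members called in a comparison under at least 1 setting. Members never called in a comparison, and so the age comparison within wild-type libraries, are not in them. Of these 1606 values under alternatives, 1426 kept direction and side of the threshold, 120 lost the call, 56 gained it and 4 changed sign. The sign changes were Tk1 within transgenic libraries with library totals only (0.033), Gins4 at D80 when the second library of either D80 group was left out (-0.023 for wild-type, -0.003 for transgenic, within a range of -0.023 to 0.1 over single omissions), and Mcm10 at D80 without D80 wild-type replicate 3 and D80 transgenic replicate 1 together (-0.058), an alternative chosen after seeing the data. Of the 26 calls at D80, 14 held in all 23 alternatives, as did 7 of the 18 within transgenic libraries, 0 of 1 at D60 and, over 22 alternatives, 0 of 2 in the interaction. The cause was not tested in any of these. With library totals only, the median of all genes at D80 moved from -0.07 to 0.34 and that of the members from 0.66 to 1.07. At D60, genes called numbered 969 with DESeq2 and 85 with sex as a covariate, against 599, and members called 2 with DESeq2, 2 with only the groups compared, 0 with sex and 2 without both libraries. Without both, 16 members were called at D80. For age in wild-type libraries the genes called were 260 with DESeq2, 5 with only the groups compared, 1 with sex and 7 without both. In the interaction, genes called were 1735 with DESeq2, 423 with limma-voom and 99 with sex, against 768, and members called 4, 1 and 0, and 1 without both. The interaction could not be fitted with only the groups compared. The sex term rests only on how D80 transgenic replicate 1 differs from replicates 2 and 3. The counts with sex therefore do not separate sex from genotype at D60 or from age in wild-type libraries.

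Leaving out 1 library at a time gave 378 to 736 genes and 0 to 3 members at D60, 4416 to 7079 genes and 19 to 27 members at D80, 0 to 396 genes and 0 members for age in wild-type, 3507 to 6594 genes and 7 to 22 members for age in transgenic, and 193 to 2419 genes and 0 to 4 members in the interaction. With the replicate number as a block, 3 members were called at D60 (Cdt1, Mcm2 and Lig1). Gins4 (0.442), Rfc5 (0.659), Tyms (0.672), Mcm10 (0.673), Gins2 (0.7) and Rfc3 (0.863), not called at D80, were called higher there with library totals only. In the simulation of the D80 comparison, 42.4% of genes changed 2-fold were recovered. It held 99 genes changed 2-fold and 99 changed 4-fold among 15168, whereas 6354 of 15369 genes were called in the data. The adjustment was thus stricter in the simulation, and the share does not measure recovery in the data.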

Other observations

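The promoter windows were also searched on both strands for CCAAT and for TTTGAA, the core letters of the CHR element known from mitosis genes. CCAAT was found in 17 of the 28 members with a window, against 42.3% of tested genes. TTTGAA was found in 4 of 28 (14.3%), against 14.4% of tested genes, and in 11 of the 16 mitosis genes with a window.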
